A study of Mus musculus with 2 samples.

Results

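The cells described here are splenic T cells with transcripts of Tnfrsf9 and of at least one of Xcl1 and Egr2. They were chosen on raw counts of unique molecular identifiers (UMIs, one per captured transcript): barcodes needed 500 or more genes with a UMI and less than 10% of UMIs from mitochondrial genes, and a gated cell had to carry Cd3e, Tnfrsf9 and Xcl1 or Egr2, with 0 UMIs of Foxp3, Cd79a and Mki67. The gate took 128 of 14372 kept barcodes, 75 of 7660 in the Prmt5 CKO library and 53 of 6712 in the control library. The T cells that could have entered it, with Cd3e and without Foxp3, Cd79a and Mki67, numbered 6606 in the Prmt5 CKO library and 5873 in the control library, and those outside the gate are called the other T cells (6531 and 5820). In the mm10 build the genes that define the gate lie at chr4:150914562-150946102 (Tnfrsf9), chr1:164931644-164935527 (Xcl1) and chr10:67535475-67542188 (Egr2).

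Prmt5 CKO mice carry a floxed Prmt5 gene, which encodes an arginine methyltransferase, and a Cre transgene under the CD4 promoter, which is active from the thymus onward and also in cells that later belong to the CD8 lineage. Spleen cells of C57BL/6 Prmt5 CKO mice and of control mice were sorted for CD3 by flow cytometry and profiled by droplet 3′ single-cell RNA sequencing. The genotype field reads the same for both samples, with Cre and the floxed gene, so the groups were taken from the titles. Each group is 1 library from 3 mice that cells could not be traced to, so genotype, library and mouse cannot be told apart. No test between the groups was possible. All intervals are exact 95% intervals and cover counting error only.

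Tnfrsf9 encodes the costimulatory receptor 4-1BB, which T cells display for some hours to days after their antigen receptor is engaged. Xcl1 encodes lymphotactin, a chemokine made by activated CD8 T cells and natural killer (NK) cells that attracts cross-presenting dendritic cells. Egr2, a zinc-finger transcription factor, and Nr4a1, the orphan nuclear receptor Nur77, are induced by antigen receptor signalling and are also linked to tolerance.

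Gated and other T cells differed in depth, and both libraries held cells of both sexes. The libraries held 52387620 UMIs in 7896 barcodes (Prmt5 CKO) and 48273424 UMIs in 7407 barcodes (control), with medians of 5966 and 6054 UMIs per barcode. Gated cells were deeper than the other T cells, with a median of 10677 UMIs (range 2837 to 34739) against 6022 in the Prmt5 CKO library and 12188 UMIs (range 2576 to 34308) against 6282 in the control library. Because entry needs at least 2 particular transcripts to be seen, deep cells enter more easily. Levels are therefore given as UMIs of a gene per 1000000 UMIs summed over the cells of a set (CPM), and they compare sets for one gene, not genes with each other. By transcript, there were cells with Y-linked transcripts and no Xist (26 Prmt5 CKO and 15 control gated cells) and cells with Xist and no Y-linked transcript (36 and 32). The libraries shared 11 barcodes, and none was a gated cell.

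The gate held 1.14% of eligible T cells in the Prmt5 CKO library (interval 0.894 to 1.42) and 0.902% in the control library (0.677 to 1.18), a ratio of 1.26 with an interval of 0.873 to 1.82. A difference between the libraries was not detectable at this depth, and under a stricter cell filter (1000 or more genes, mitochondrial share below 5%) the ratio lay on the other side of 1, at 0.958 (0.614 to 1.52). With each cell thinned to 2000 UMIs the gate held 20 of 5041 Prmt5 CKO cells, 0.397%, and 13 of 4619 control cells, 0.281%, and the ratio was 1.41 (0.667 to 3.08). The parts of the gate did not move together. Any Tnfrsf9 was seen in 5.36% of eligible Prmt5 CKO cells and 3.87% of control cells (ratio 1.39, 1.17 to 1.65), whereas any Xcl1 was seen in 3.16% and 3.90% (ratio 0.811, 0.669 to 0.983) and any Egr2 in 1.68% and 2.08% (ratio 0.809, 0.620 to 1.05). Tnfrsf9 was found in 0 of 55 Prmt5 CKO and 0 of 51 control cells that carried Cd79a and no Cd3e, the B cells of the sort. By a floor of 3 counts those counts of 0 allow shares of up to 5.45% and 5.88%, and by the exact interval of up to 6.49% and 6.98%, at median depths of 4009 and 4236 UMIs. Xcl1 was in 0 and 1 of these B cells, and Egr2 in 5 and 0.

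**Figure D1:**
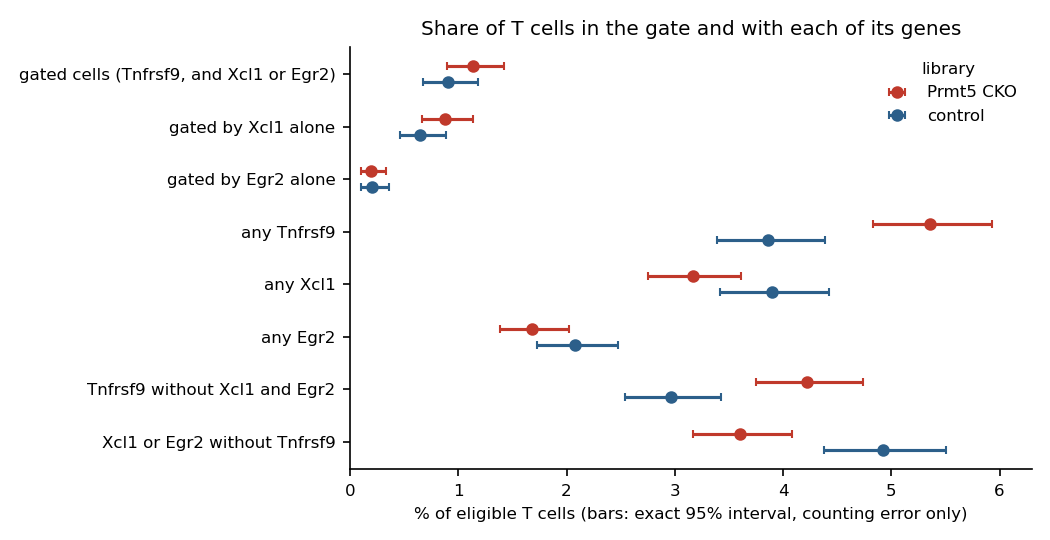
Share of eligible T cells (horizontal axis, percent) that met the gate, met it by one gene alone, or carried each gene of the gate, in the Prmt5 CKO library (red, above) and the control library (blue, below), with exact intervals as bars. The intervals of the gated share overlap (1.14% in Prmt5 CKO, 0.902% in control), while any Tnfrsf9 was seen in a larger share of Prmt5 CKO cells (5.36% against 3.87%).

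Most gated cells entered through Xcl1. Of the Prmt5 CKO cells 58 carried Xcl1 alone, 13 Egr2 alone and 4 both, and of the control cells 38, 12 and 3. Tnfrsf9 reached the threshold with a single UMI in 25 Prmt5 CKO and 18 control cells, and with 3 or more in 34 and 25. Its median was 2 UMIs and its highest value 15 in both libraries. Xcl1 spanned a wide range, with medians of 5 and 4.5 UMIs among cells that entered by it alone and maxima of 172 and 97. Egr2 had a median of 1 UMI in both libraries among all gated cells that carried it, with or without Xcl1. Both conditions were met by a single UMI each in 10 Prmt5 CKO and 7 control cells. The negative conditions barred some cells that met all the positive ones. Of such cells, 15 Prmt5 CKO and 7 control cells carried Foxp3, 3 and 0 carried Cd79a, and 8 and 8 carried Mki67. A cell with several of these genes is counted under each.

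Cells just outside the gate were far more numerous than those inside it. Tnfrsf9 without Xcl1 and Egr2 was seen in 279 Prmt5 CKO and 174 control cells, and Xcl1 or Egr2 without Tnfrsf9 in 238 and 289. On the inner side, gated cells with 1 Tnfrsf9 UMI had 467 CPM of Ikzf2 in the Prmt5 CKO library and 787 CPM in the control library, and those with more had 691 and 615 CPM. On the outer side, Ikzf2 stood at 357 and 335 CPM in cells with Tnfrsf9 alone, and at 326 and 212 CPM in cells with Xcl1 or Egr2 and no Tnfrsf9. Eomes, a T-box factor of memory CD8 and NK cells, had 23.0 CPM (Prmt5 CKO) and 22.3 CPM (control) in gated cells with 1 Tnfrsf9 UMI, and 179 and 165 CPM in those with more. Outside the gate it had 49.2 and 78.3 CPM in cells with Tnfrsf9 alone and 46.1 and 36.0 CPM in cells with Xcl1 or Egr2 alone. Ccl5, a chemokine of effector and memory cells, ran the other way, with 3667 and 7575 CPM in gated cells with 1 Tnfrsf9 UMI and 1251 and 948 CPM in those with more, but 64.1% of the UMIs behind 7575 CPM came from 1 control cell.

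The gated cells were of mixed lineage. By raw UMIs, 25 of 75 Prmt5 CKO cells (33.3%, 22.9 to 45.2) and 27 of 53 control cells (50.9%) carried Cd8a or Cd8b1 without Cd4. Cd4 without Cd8 was seen in 16 and 6 cells, both in 4 and 4, and neither in 30 and 16. Among the other T cells Cd8 without Cd4 made up 26.9% and 37.4%, and Cd4 without Cd8 32.3% and 29.1%. After thinning to 2000 UMIs the gated shares were 22.7% and 37.7% for Cd8 without Cd4, against 24.9% and 33.9% in other T cells. For Cd4 without Cd8 they were 2.67% and 1.89%, against 16.6% and 13.9%. At equal depth Cd4 without Cd8 was thus seen less often in the gate than outside it in both libraries. As a measure of free RNA, Cd8 without Cd4 was seen in 4 of 55 and 4 of 51 B cells, unthinned, and Cd4 without Cd8 in 1 and 0.

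Trdc, the constant region of the delta chain of the gamma-delta T cell receptor, was more frequent in the gate. It was seen in 27 of 75 gated Prmt5 CKO cells, 36.0% with an interval of 25.2 to 47.9, and in 11 of 53 gated control cells, 20.8% with an interval of 10.8 to 34.1, against 10.8% and 3.83% of other T cells. After thinning the shares were 33.3% and 11.3%, against 7.42% and 2.22%. Unthinned, 1 of 55 Prmt5 CKO and 0 of 51 control B cells carried it. The difference between the libraries was present outside the gate too, where Trdc stood at 107 CPM in Prmt5 CKO and 26.7 CPM in control other T cells. The gamma chain constant regions Tcrg-C1, Tcrg-C2 and Tcrg-C4, near copies of one another whose reads may be split among them, were likewise higher: Tcrg-C2 had 83.0 CPM in gated cells against 22.3 in other T cells in the Prmt5 CKO library, and 75.8 against 11 in the control library. Sox13, Il17a and Il23r, markers of interleukin-17-producing gamma-delta cells, were at 0 in the gated cells of both libraries. Trac, the constant region of the alpha chain, was seen in 88.0% and 92.5% of gated cells and in 9.09% and 19.6% of B cells. Its level in Trdc-bearing gated cells was 351 CPM in both libraries, against 709 and 690 CPM in all gated cells. Cd8a without Cd8b1, a pattern of cells with CD8 alpha homodimers, was seen in 6.67% and 13.2% of gated cells and in 1.58% and 1.46% of other T cells.

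Markers of recent activation that the gate did not use were higher only in part. Tnfrsf9, Xcl1 and Egr2 are high by construction. Nr4a1 had 113 CPM in gated cells against 71.1 CPM in other T cells in the Prmt5 CKO library, and 109 against 69.5 CPM in the control library. That is a log2 ratio of 0.67 in the Prmt5 CKO library and 0.65 in the control library, under 2-fold. Nr4a1 was seen in 56.0% of Prmt5 CKO and 47.2% of control gated cells, against 27.5% and 28.6% of other T cells, and after thinning in 26.7% and 20.8% against 12% and 12.3%. Its relative Nr4a2 was more marked, at 179 against 30.4 CPM in the Prmt5 CKO library and 193 against 32.8 CPM in the control library. Cd69, the classical early activation antigen, was lower in the gate, at 599 against 899 CPM (Prmt5 CKO) and 438 against 785 CPM (control). The cytokines Il2 and Ifng were seen in few gated cells: Il2 in 2.67% and 5.66%, against 3.97% and 4.69% of other T cells, and Ifng in 12% and 18.9%, against 3.25% and 3.49%. Since Cd69 and Nr4a1 did not move together, the cells are called by their gate and not as recently activated.

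**Figure D2:**
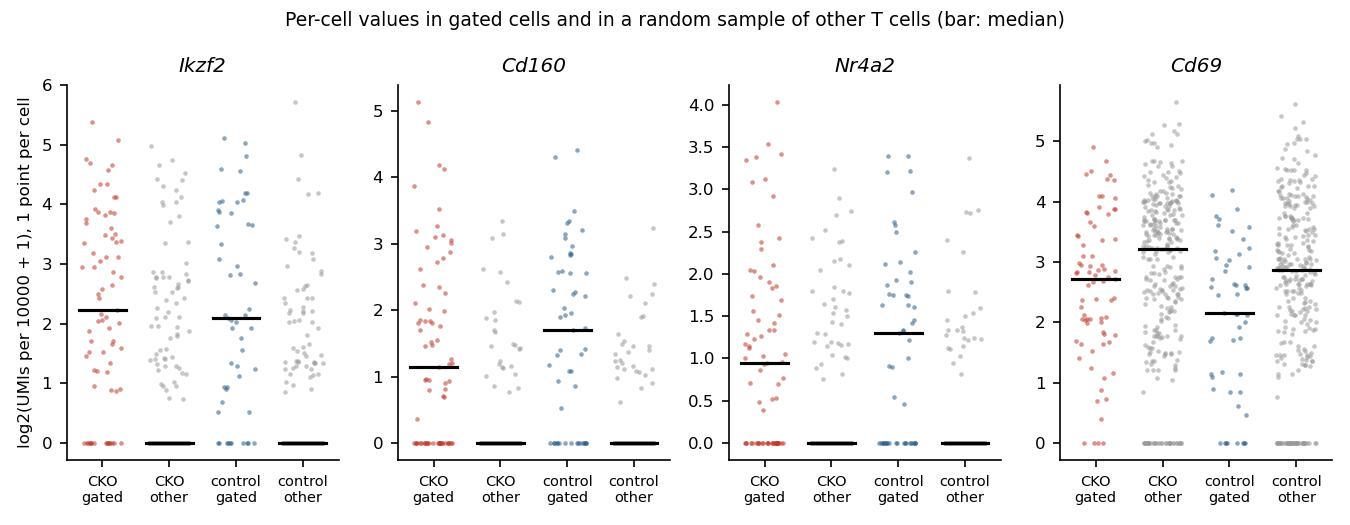
Values per cell, as log2(UMIs per 10000 + 1) on the vertical axis, for Ikzf2, Cd160, Nr4a2 and Cd69 in the gated cells (colour) and in 300 randomly drawn other T cells (grey) of each library, with the Prmt5 CKO library on the left and the median as a bar. For Ikzf2, Cd160 and Nr4a2 the median lies above 0 in the gate and at 0 outside it in both libraries, and for Cd69 it lies lower in the gate.

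Across genes, 5151 had at least 20 CPM in gated cells or in other T cells in each library. Of these, 413 (8.02%) were at least 2-fold higher and 123 (2.39%) at least 2-fold lower in the gate in both libraries. The median log2 ratio over all 5151 genes was 0.15 in the Prmt5 CKO library and 0.21 in the control library. Scaled to UMIs outside ribosomal, mitochondrial and antigen receptor genes, these medians were 0.042 and 0.039, and 401 genes were higher and 228 lower. Without a threshold on size, 52.4% of genes were higher and 30.2% lower in the gate in both libraries. Genes that reach 20 CPM only in the gate could hardly be anything but higher there. Counts of gene lists were therefore taken over the 4549 genes with at least 20 CPM in other T cells of both libraries, a filter added after the values had been seen. Of these, 46.9% were higher and 34.2% lower in the gate in both libraries, 4.55% and 2.7% at least 2-fold, with medians of 0.067 (Prmt5 CKO) and 0.12 (control). These ratios describe the gate and test nothing, since the cells were picked on transcripts of the same cells.

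Ikzf2 encodes the transcription factor Helios, known from regulatory T cells and from T cells that met strong self-antigen in the thymus. It had 626 CPM in gated cells against 110 CPM in other T cells in the Prmt5 CKO library, and 657 against 88.2 CPM in the control library. It was seen in 80% and 81.1% of gated cells, against 19.0% and 17.1%. Per cell, its median was 3.67 UMIs per 10000 in Prmt5 CKO and 3.28 in control gated cells, and the values ran from 0 to 40.6 and from 0 to 33.7. Thinned to 2000 UMIs, 57.3% and 58.5% of gated cells and 10.7% and 9.42% of other T cells carried it. Foxp3-bearing cells were barred from the gate. In cells with both Foxp3 and Tnfrsf9, which fall outside it, Ikzf2 stood at 1159 CPM in the Prmt5 CKO library and 1182 CPM in the control library.

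Cd160, an inhibitory receptor for HVEM on cytotoxic and intraepithelial lymphocytes, had 284 CPM in gated cells against 35.8 CPM in other T cells in the Prmt5 CKO library and 316 against 31.1 CPM in the control library, and 64.0% and 69.8% of gated cells carried it. Nrgn, neurogranin, a calmodulin-binding protein best known from neurons, had the largest log2 ratios of the named genes, 5.22 (4.94 to 5.49) in the Prmt5 CKO library and 6.27 (6.00 to 6.54) in the control library. It was seen in 29.3% and 30.2% of gated cells against 1.45% and 0.979% of other T cells. A single gated cell gave 19.5% of its UMIs in the Prmt5 CKO library and 19.4% in the control library. Spry2, a feedback inhibitor of receptor tyrosine kinase and ERK signalling, had 119 against 9.93 CPM and 157 against 10.5 CPM. Crtam, an adhesion receptor of cytotoxic lymphocytes, had 124 against 10.1 CPM and 112 against 12.5 CPM. Hivep3, a zinc-finger regulator of receptor signalling, had 87.5 against 13.1 CPM and 131 against 12.2 CPM, and Marcksl1, an actin-binding kinase substrate, had 93.1 against 12.7 CPM and 93.7 against 11.5 CPM. Irf8, a transcription factor shared with B and myeloid cells, had 78.5 against 6.99 CPM and 66.1 against 5.32 CPM, and was seen in 37.3% and 32.1% of gated cells. B cells carried Irf8 in 69.1% and 72.5%. The B cell genes Ms4a1 and Cd22 were at 0 in the gated cells of both libraries, and Ighm was lower in the gate than outside it, at 109 against 227 CPM (Prmt5 CKO) and 117 against 223 CPM (control).

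Inhibitory receptors gave a mixed picture. Of 22 genes of an inhibition and anergy list, 10 had at least 20 CPM in other T cells. In both libraries 6 of these were higher and 4 lower in the gate, 1 of them 2-fold in each direction, beside 46.9% and 34.2% of all genes higher and lower. Their medians were 0.54 (Prmt5 CKO) and 0.29 (control). Lag3, Pdcd1 and Cd200 did not reach 20 CPM in other T cells of both libraries and are not in that count. Lag3, a receptor for MHC class II, had 25.8 against 1.79 CPM and 22.0 against 3.02 CPM. Pdcd1, which encodes PD-1, had 28.0 against 4.75 CPM and 42.7 against 3.40 CPM, in 18.7% and 30.2% of gated cells. Cd200, a surface glycoprotein that dampens myeloid cells, had 172 against 21.8 CPM and 79.9 against 16.5 CPM. Havcr2, which encodes TIM-3, and the anergy ligase gene Rnf128 were at 0 in the gated cells of both libraries.

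Biosynthetic genes were high. Of 30 genes of a MYC and biosynthesis list, 26 had at least 20 CPM in other T cells, and 26 were higher in the gate in both libraries, beside 46.9% of all genes. At least 2-fold were 20 of them, beside 4.55% of all genes. The median log2 ratio was 1.34 in the Prmt5 CKO library and 1.62 in the control library. Odc1, the first enzyme of polyamine synthesis, had 189 against 35 CPM and 208 against 34.8 CPM. Srm, spermidine synthase, had 172 against 38.1 CPM and 259 against 37.3 CPM. Hspd1, the mitochondrial chaperonin, had 533 against 125 CPM and 657 against 119 CPM. The metabolic enzymes Gcsh, Galk1, Acot7 and Dctpp1, outside that list, were 2.28 to 2.92 higher on the log2 scale. Myc itself had 114 against 52.1 CPM and 163 against 51.3 CPM. Within a band of 5000 to 15000 UMIs per cell, which held 50 Prmt5 CKO and 30 control gated cells, 26 of the 26 were again higher, 14 of them at least 2-fold, and the list medians were 1.205 and 1.204.

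Genes of glycolysis and DNA replication were also higher, by less in the band of 5000 to 15000 UMIs. Of 12 glycolysis genes with at least 20 CPM in other T cells 10 were higher in both libraries and 3 at least 2-fold, beside 46.9% and 4.55% of all genes, with medians of 0.87 and 0.85. In the band of 5000 to 15000 UMIs those medians were 0.51 and 0.46. Among them Tpi1, triosephosphate isomerase, had 123 against 23.6 CPM and 138 against 23.4 CPM. Of 7 S phase genes 7 were higher and 4 at least 2-fold, with medians of 1.238 and 1.502, and in the band 5 were higher and 1 at least 2-fold, with medians of 0.47 and 0.63. Mcm6, a subunit of the replicative helicase, had 155 against 37.6 CPM and 168 against 38.5 CPM. Mki67 was barred by the gate. Of 4 G2 and M phase genes 3 were higher, and 1 at least 2-fold, but in the band 2 were higher, 1 lower and 0 at least 2-fold higher. Of 4 arginine methyltransferases and PRMT5 partners 4 were higher in both libraries, with medians of 0.902 and 0.996, and 0.66 and 0.82 in the band. Of 10 genes of the spliceosomal Sm core, whose proteins PRMT5 methylates, and of the SMN complex 10 were higher, with medians of 0.62 and 0.86, and 0.34 and 0.59 in the band.

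Genes of naive and resting T cells were low. Of a list of 20, all with at least 20 CPM in other T cells, 20 were lower in the gate in both libraries and 11 at least 2-fold, beside 34.2% and 2.7% of all genes, with medians of −1.13 (Prmt5 CKO) and −1.34 (control). In the band of 5000 to 15000 UMIs 19 were lower and 7 at least 2-fold, with medians of −0.83 and −0.90. S1pr1, the receptor for egress from lymphoid tissue, had 39.2 against 188 CPM and 40.0 against 219 CPM, and was seen in 25.3% and 26.4% of gated cells against 62.6% and 67.6% of other T cells. Klf2, the factor that drives S1pr1, had 379 against 1011 CPM and 269 against 1212 CPM. Il7r, the receptor for the survival cytokine interleukin 7, had 132 against 678 CPM and 156 against 486 CPM. Il2rb, the shared beta chain of the interleukin 2 and 15 receptors, stood on the other side, at 230 against 58.3 CPM and 230 against 74.2 CPM. Ly6c1 (12.3 against 147 CPM and 13.8 against 89.8 CPM) has a near copy in Ly6c2, so its reads may be split between them. Igfbp4, which binds insulin-like growth factors, had 89.7 against 522 CPM and 26.2 against 271 CPM. Il6ra, the interleukin 6 receptor, had 11.2 against 106 CPM and 26.2 against 92.2 CPM. Txnip, an inhibitor of glucose uptake, had 163 against 596 CPM and 128 against 501 CPM.

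Other activation lists were mixed, beside 46.9% of all genes higher and 34.2% lower, and 44.1% and 25.2% in the band of 5000 to 15000 UMIs. Of 11 genes of an NR4A, EGR and DUSP list, 7 were higher and 3 lower in both libraries, with medians of 0.34 and 0.33. In the band 9 of them were higher and 1 lower, with medians of 0.64 (Prmt5 CKO) and 0.71 (control). Of 22 genes of antigen receptor signalling, 7 were higher and 15 lower in both libraries, with medians of −0.28 and −0.13, and none passed 2-fold in both. In the band of 5000 to 15000 UMIs 8 were higher and 9 lower. Of 11 AP-1 and IRF genes, 2 were higher and 5 lower in both. Jun, an AP-1 subunit, had 184 against 355 CPM and 147 against 354 CPM, and Nfatc1, a calcineurin-dependent factor, had 91.9 against 43.4 CPM and 106 against 52.3 CPM. Of 17 interferon response genes, 1 was higher and 13 lower in both, although in the band 5 were higher and 4 lower, with medians of 0.017 and 0.0055. Of 18 NF-kB genes, 8 were higher and 7 lower, shares near those of all genes, and in the band 9 were higher and 2 lower, with medians of 0.13 and 0.41. Rel, the c-Rel subunit, had 121 against 46.8 CPM and 103 against 52.4 CPM, and its target Bcl2a1d, which has near-identical copies and is not in that count, had 62.8 against 10.3 CPM and 60.6 against 12.9 CPM.

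**Figure D3:**
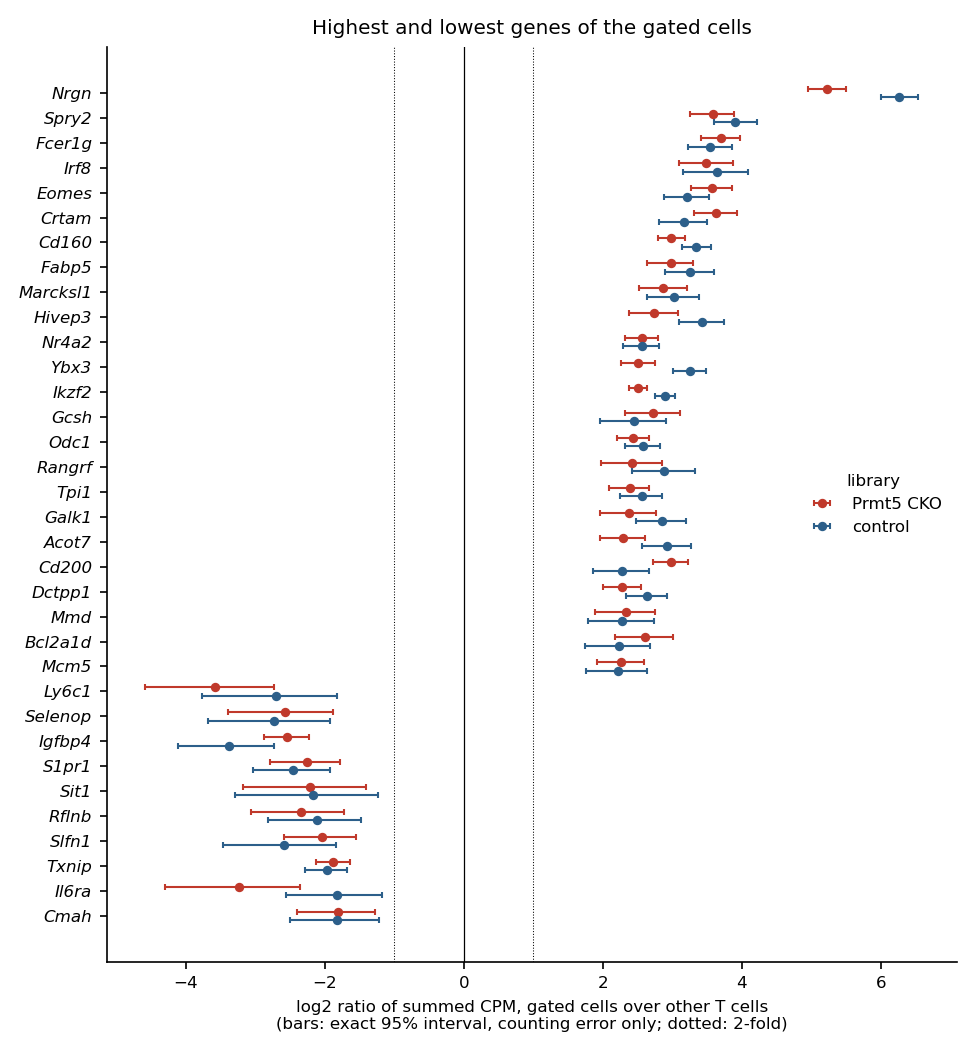
Log2 ratio of summed CPM in gated cells over other T cells (horizontal axis) for the 24 highest and 10 lowest genes, in the Prmt5 CKO library (red, above) and the control library (blue, below), with exact intervals as bars. Every gene plotted lies past 2-fold on the same side in both libraries, from Nrgn (5.22 and 6.27) down to Ly6c1 (−3.57 and −2.70).

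Signalling adaptors of NK and myeloid cells were high. Fcer1g, the Fc receptor gamma chain, had 157 CPM in gated cells against 12.1 CPM in other T cells in the Prmt5 CKO library, and 136 against 11.7 CPM in the control library, and Tyrobp, which encodes DAP12, had 52.7 against 6.33 CPM and 38.6 against 3.98 CPM. None of the NK markers reached 20 CPM in other T cells of both libraries, so no count over the list is given. Fcer1g and Tyrobp also stand on the myeloid list. The summed level of the NK list was 417 CPM in gated cells against 45.2 CPM in other T cells (Prmt5 CKO) and 357 against 41.4 CPM (control). Klrb1c, another NK marker of the list, was at least 2-fold higher in the gate in both libraries. Klra8 and Klra4 were at 0, and Ncr1, the defining receptor NKp46, was seen in 3 of 75 and 1 of 53 gated cells. Of the myeloid list Lyz2, Csf1r, C1qc, Itgam and Ly86 were at 0 in the gated cells of both libraries. Trbc2, the constant region of the beta chain, was seen in 98.7% and 100% of gated cells and in 11 of 55 and 16 of 51 B cells. The part of captured NK cells or doublets in these levels was not tested.

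Fcer1g and Eomes were seen together in 1 Prmt5 CKO and 3 control gated cells. Fcer1g was seen in 20 Prmt5 CKO and 15 control cells (26.7% and 28.3%), and Eomes in 27 and 18 (36.0% and 34.0%). The overlap was not set against the number of cells that unrelated genes of these frequencies would share, and was not tested. The split by Fcer1g and Eomes was noticed after the values had been seen and is described with no test. Cells with Fcer1g and without Eomes (19 Prmt5 CKO, 12 control) had 406 and 597 CPM of Spry2, and those with Eomes and without Fcer1g (26 and 15) had 5.25 and 3.90 CPM. The Fcer1g-bearing cells also had more Ikzf2, at 1478 and 1223 CPM against 252 and 273 CPM in the Eomes-bearing cells, more Cd160 (723 and 560 CPM against 166 and 81.9 CPM) and more Nrgn (562 and 965 CPM against 15.8 and 0 CPM). Klrd1, which encodes the NK receptor CD94, had 624 and 449 CPM against 173 and 97.5 CPM. Single cells weigh heavily in these small sets: 1 cell gave 36.1% of the Prmt5 CKO and 40.5% of the control UMIs of Nrgn in the Fcer1g-bearing cells.

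Srm, Fabp5 and Cd200 were higher in the Eomes-bearing cells. Srm stood at 310 CPM in Prmt5 CKO and 425 CPM in control cells with Eomes and without Fcer1g, against 72.9 and 95.8 CPM in cells with Fcer1g and without Eomes. Fabp5, a fatty acid carrier, had 173 and 226 CPM against 26.0 and 44.2 CPM, and Cd200 had 326 and 121 CPM against 26.0 and 51.6 CPM. The Eomes-bearing cells were somewhat deeper, with medians of 11602.5 and 14604 UMIs against 9497 and 10455.5 UMIs. Cd8 without Cd4 was seen in 12 of 26 and 11 of 15 Eomes-bearing cells, and in 4 of 19 and 3 of 12 Fcer1g-bearing cells. Trdc was seen in 9 and 1 Eomes-bearing cells and in 8 and 5 Fcer1g-bearing cells. The cells with neither gene, 29 and 23, had 548 and 694 CPM of Ikzf2, between the levels of the other subsets, and 67.3 and 206 CPM of Srm.

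The cells were also compared by route of entry, a split that is not separate from the one by Fcer1g and Eomes. Fcer1g was seen in 18 of 58 Prmt5 CKO cells that entered by Xcl1 alone and in 1 of 13 that entered by Egr2 alone. In the control library it was seen in 12 of 38 and 2 of 12. Of 5243 genes with at least 20 CPM in either route in each library, 77 (1.47%) were at least 2-fold higher and 132 (2.52%) at least 2-fold lower in cells that entered by Xcl1 alone than in cells that entered by Egr2 alone, in both libraries. A further 101 (1.93%) passed 2-fold in opposite directions in the libraries. The Egr2 route rests on 13 Prmt5 CKO and 12 control cells with 94235 and 150915 UMIs. Higher in the Xcl1 route were Klrd1 (279 against 21.2 CPM in Prmt5 CKO, 257 against 19.9 CPM in control), Ccl5 (2292 against 265 CPM and 3487 against 19.9 CPM), Spry2 (125 against 21.2 CPM and 166 against 19.9 CPM) and Ctsw, a cathepsin of cytotoxic cells (208 against 74.3 CPM and 227 against 59.6 CPM). Of the control library's Ccl5 in all gated cells, 46.4% came from 1 cell, and 22 of the 25 UMIs behind 265 CPM came from 1 cell. The Egr2 route values of Klrd1 and Spry2 rest on 2 UMIs in Prmt5 CKO and 3 in control for each gene.

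At the other end, the 8 genes that were lowest in the Xcl1 route against the Egr2 route were Tnfrsf4, Cd40lg, Ctla4, Capg, Isg20, Trib1, Ly6a and Icos, and single cells weighed heavily in several of them. Tnfrsf4, which encodes the costimulatory receptor OX40, had 36.0 CPM in the Xcl1 route against 499 CPM in the Egr2 route in Prmt5 CKO and 5.58 against 172 CPM in control. In the Egr2 route 1 cell gave 76.6% of its Prmt5 CKO UMIs and 1 cell 61.5% of its control UMIs, and without these cells the Egr2 route had 133 and 72.1 CPM. Cd40lg, the ligand by which helper T cells license B cells and dendritic cells, had 6.67 against 233 CPM and 5.58 against 66.3 CPM, and 84.9 and 35.1 CPM in the Egr2 route without the highest cell. Icos, a costimulatory receptor of helper cells, had 28.0 against 297 CPM and 37.2 against 179 CPM, and 230 and 140 CPM without the highest cell. The inhibitory receptor gene Ctla4 had 13.3 against 127 CPM and 14.9 against 152 CPM, and 68.0 and 108 CPM without it.

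The other 4 leaned on single cells to differing degrees. In the Egr2 route 1 cell gave 63.5% of the Prmt5 CKO and 79.6% of the control UMIs of Ly6a. For Trib1 the shares were 30% and 33.3%. Ly6a, the surface antigen Sca-1, had 93.4 against 552 CPM and 72.6 against 358 CPM, and 231 and 86.1 CPM in the Egr2 route without the highest cell. Isg20, an interferon-induced exonuclease, had 12 against 170 CPM and 13.0 against 79.5 CPM, and 36.5 and 64.8 CPM without it. Capg, an actin-capping protein, had 16.0 against 106 CPM and 13.0 against 99.4 CPM, and 33.7 and 35.1 CPM without it. Trib1, a pseudokinase, had 20 against 106 CPM and 9.31 against 59.6 CPM, and 84.9 and 43.2 CPM without it. Of 15 genes of a helper subset list, which includes Icos and Cd40lg, 5 had at least 20 CPM in all gated cells of both libraries. In both libraries 0 of these were higher and 5 lower in the Xcl1 route, 2 of them at least 2-fold. Of 4677 such genes, 27.9% were higher and 26.2% lower, 1.48% and 1% at least 2-fold. A list of 16 regulatory T cell genes, which includes Tnfrsf4 and Ctla4, was more marked. Of its 6 genes at that level, 0 were higher and 4 lower in both libraries, 4 of them at least 2-fold. The medians were −2.29 (Prmt5 CKO) and −2.35 (control). The gate barred only cells in which Foxp3 was seen, and the part of regulatory T cells in the Egr2 route was not tested.

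The early response genes Nr4a1 and Egr1 were also higher in the Egr2 route, which was itself picked on a gene induced by antigen receptor signalling. Of 13 NR4A, EGR and DUSP genes, 8 were lower and 1 higher in the Xcl1 route in both libraries, 2 and 1 of them at least 2-fold. Of 13 AP-1 and IRF genes, 3 were lower and 1 higher, beside 26.2% and 27.9% of all genes. Nr4a1 stood at 81.4 CPM in the Xcl1 route against 393 CPM in the Egr2 route (Prmt5 CKO) and 67.0 against 192 CPM (control), and at 341 and 116 CPM in the Egr2 route without the highest cell. Egr1 stood at 44.0 against 499 CPM and 48.4 against 212 CPM. In the Xcl1 route Nr4a1 was thus close to its level in other T cells, 71.1 and 69.5 CPM. Restricted to cells with Cd8 and without Cd4, the routes hold 20 and 3 Prmt5 CKO cells and 21 and 3 control cells. There the mean log2 ratio of Spry2 over both libraries was −0.56. Spry2 was seen in 1 cell of the whole Egr2 route in each library, and a sum of 0 was set to 3 counts. That ratio therefore cannot be read as a change in level.

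**Figure D4:**
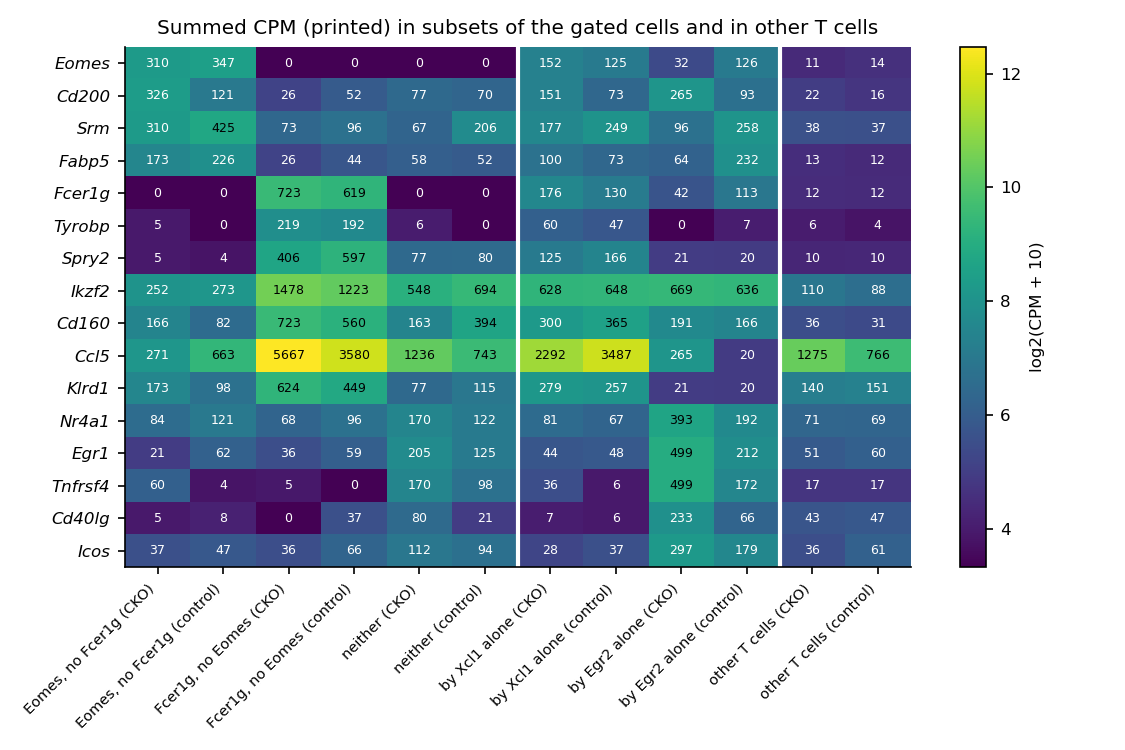
Summed CPM (printed in each cell, colour as log2(CPM + 10)) of 16 genes in 3 subsets of the gated cells split by Eomes and Fcer1g, in the 2 routes of entry and in the other T cells, with the Prmt5 CKO library left of the control library in each pair. Spry2, Ikzf2 and Cd160 are highest in the cells with Fcer1g and without Eomes, Srm and Fabp5 are higher in the cells with Eomes than in those with Fcer1g, and Nr4a1, Egr1 and Tnfrsf4 are highest in the Egr2 route, where 1 cell in each library holds most of the Tnfrsf4 UMIs. The 0 values of Eomes and Fcer1g in the first 6 columns are set by how the subsets were made.

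Within the gate, the targeted gene checked the labels. Prmt5 (chr14:54507187-54517525) had 5 UMIs in 3 of 75 Prmt5 CKO gated cells, 5.61 CPM, and 27 UMIs in 15 of 53 control gated cells, 37.2 CPM, a log2 ratio of −2.73 (−4.46 to −1.33). In other T cells it had 4.66 and 14.1 CPM, a log2 ratio of −1.60 (−1.84 to −1.37). The control gated cells thus carried more Prmt5 transcript than the other control T cells (log2 ratio 1.40, 0.78 to 1.95), while for Prmt5 CKO cells the interval of that ratio spanned 0 (0.27, −1.37 to 1.51).

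Of 3876 genes with at least 50 UMIs over the gated cells of both libraries, 29 (0.748%) were at least 2-fold higher and 29 (0.748%) at least 2-fold lower in Prmt5 CKO than in control gated cells. In the other T cells 12 of the same 3876 genes (0.31%) were at least 2-fold higher and 0 at least 2-fold lower, with far smaller counting error. Of the 58 genes past 2-fold in the gate, 4 were past 2-fold in the same direction in other T cells and 38 were within 1.2-fold there. The median log2 ratio was −0.017 in gated cells and 0.062 in other T cells. With 1 library per group these counts compare 2 libraries and not genotypes.

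Parp14 and Tnfsf8 were among the genes higher in Prmt5 CKO gated cells. Tnfsf8, which encodes CD30 ligand, had 98.7 CPM in Prmt5 CKO and 34.4 CPM in control gated cells, a log2 ratio of 1.52 (0.86 to 2.22), and 0.80 in other T cells. Parp14, an interferon-inducible ADP-ribosyltransferase, had 46.0 and 13.8 CPM and did not differ in other T cells by more than counting error (0.055, −0.048 to 0.16). Serpina3g, a serpin of activated T cells with near-identical copies, had 53.8 and 20.7 CPM and was also higher in other T cells (1.57). Gtpbp2, Dapp1, Ccm2, Tmem173 (which encodes STING), Kbtbd11, C1galt1, Irf7 and Unc119 had log2 ratios of 1.16 to 1.45 in the gate, and Dapp1 had −0.021 in other T cells. In gated cells with Cd4 and without Cd8 (16 Prmt5 CKO, 6 control) the log2 ratios of Serpina3g and Ccm2 were −1.54 and −0.081, with no minimum of UMIs set within those cells. Lck, the proximal kinase of the antigen receptor, had 746 and 344 CPM (1.11, 0.90 to 1.33) and was also higher in other T cells (1.29).

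Among genes with under 20% of their UMIs from 1 cell, Dusp10, Dtx1 and P2ry10 were the lowest in Prmt5 CKO against control gated cells. Dusp10, a phosphatase of JNK and p38, had 20.2 CPM in Prmt5 CKO and 55.1 CPM in control gated cells (−1.45, −2.34 to −0.61) and −0.69 in other T cells. P2ry10, a lysophospholipid receptor gene, had 22.4 and 59.3 CPM (−1.40) and −0.71 in other T cells. Dtx1, a Notch-related ubiquitin ligase linked to anergy, had 21.3 and 56.5 CPM (−1.41) and −0.19 in other T cells. Cxcr6, a chemokine receptor of tissue-homing T cells, had 20.2 and 51.0 CPM (−1.34, −2.24 to −0.49), and its ratio in other T cells was 0.22 (0.10 to 0.33). Ly6c2 had 89.7 and 215 CPM (−1.26) and −0.89 in other T cells. Trmt61a, Bysl, Ifrd2, Tmem147, Lrrc59, Slain2 and Carnmt1 had log2 ratios of −1.34 to −1.17 in the gate. In gated cells with Cd4 and without Cd8 the ratios of P2ry10, Slain2 and Carnmt1 were 0.045, that of Trmt61a 0.63 and that of Lrrc59 1.37.

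**Figure D5:**
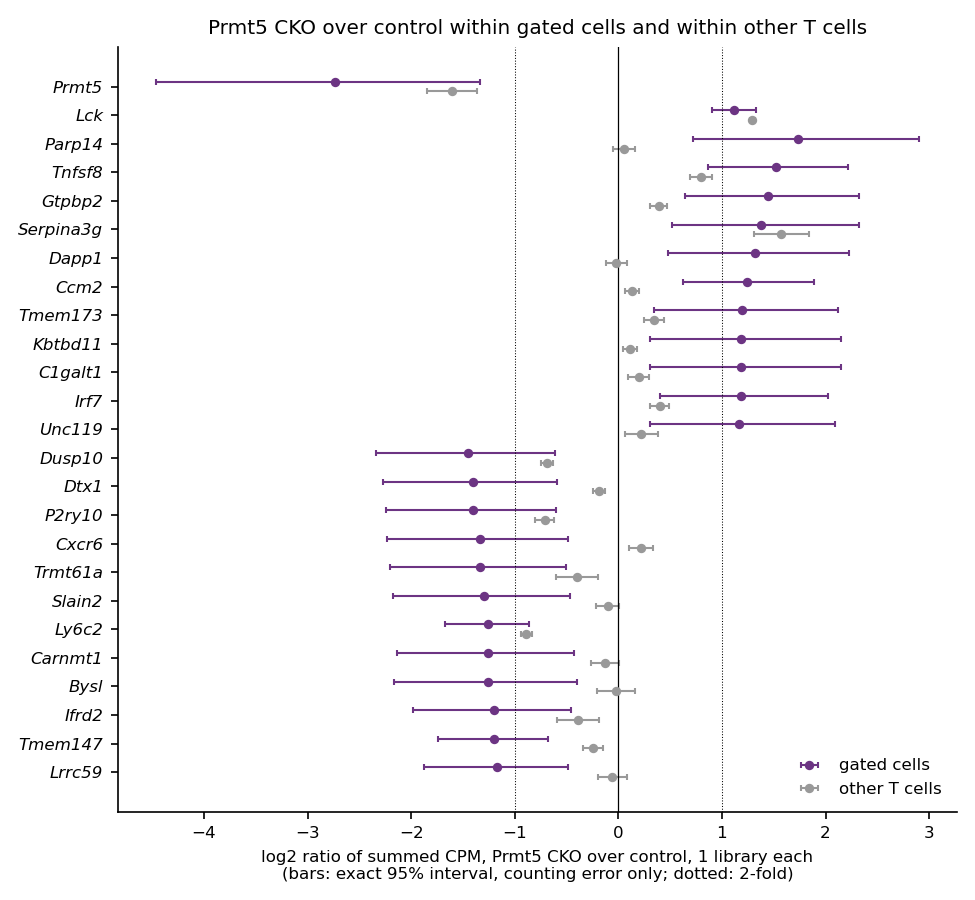
Log2 ratio of summed CPM, Prmt5 CKO over control (horizontal axis), for Prmt5, Lck, 11 of the 12 highest and the 12 lowest genes within gated cells (purple, above), with the same ratio in other T cells (grey, below) and exact intervals as bars. Of the genes plotted, Prmt5, Lck and Serpina3g lie past 2-fold on the same side in both sets, and Cxcr6 has its 2 intervals on opposite sides of 0 (−1.34 in gated cells, 0.22 in other T cells).

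By list, interferon and TNF family genes were mostly higher in Prmt5 CKO gated cells. Of 12 measured interferon response genes 12 were higher, 3 of them at least 2-fold, beside 47.6% of all 3876 genes higher. Their median log2 ratio was 0.45 in gated cells and 0.22 in other T cells. Isg15, an interferon-induced ubiquitin-like protein, had 93.1 and 40.0 CPM, with 32.5% of the Prmt5 CKO UMIs from 1 cell, and Ifi27l2a had 764 and 379 CPM. Without the Trdc-bearing cells the median was 0.15, with 6 genes higher and 6 lower. Of 7 measured TNF family genes 7 were higher, with a median of 0.66 in gated cells and 0.25 in other T cells. The median was 0.36, with 6 of 7 higher, in gated cells with 5000 to 15000 UMIs, and 0.40, with 7 higher, without the Trdc-bearing cells. Traf1, a signalling adaptor of 4-1BB, had 141 and 73.0 CPM (0.95, 0.48 to 1.44), and Tnfrsf4 had 86.3 and 40.0 CPM, with 46.8% of the Prmt5 CKO UMIs from 1 cell. In gated cells with Cd4 and without Cd8, 16 Prmt5 CKO and 6 control cells, the TNF family median was −0.50.

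Biosynthetic genes were mostly lower in Prmt5 CKO gated cells. Of 28 measured MYC and biosynthesis genes 27 were lower in Prmt5 CKO gated cells, none of them 2-fold, beside 52.4% of all genes lower, with a median log2 ratio of −0.21 in gated cells and 0.012 in other T cells. Nop56, a nucleolar protein of ribosome assembly, had 148 and 240 CPM (−0.70, −1.03 to −0.36), and Srm had 172 and 259 CPM (−0.59, −0.91 to −0.28), while their ratios in other T cells were −0.065 and 0.032. Prmt5 CKO gated cells were shallower, with a median of 10677 UMIs against 12188 in control gated cells, and among gated cells with 5000 to 15000 UMIs 18 of the 28 genes were lower and the median was −0.14. In the Cd4-bearing gated cells the median was 0.91. Of 12 measured glycolysis genes 11 were lower, with a median of −0.15 in gated cells and 0.021 in other T cells. In the band of 5000 to 15000 UMIs 8 were lower and the median was −0.085, and in the Cd4-bearing gated cells 8 were higher and the median was 0.49. Of 6 measured methyltransferases and partners 4 were lower, with a median of −0.49 against 0.039, and 0.24 in the Cd4-bearing gated cells: Wdr77, the PRMT5 cofactor MEP50, had 28.0 and 48.2 CPM, and Prmt1, the main asymmetric arginine methyltransferase, had 221 and 285 CPM. Of 18 measured naive and quiescence genes 15 were higher, with a median of 0.20 against −0.066, and in the band of 5000 to 15000 UMIs the median was 0.0024, with 9 genes higher and 9 lower. In the Cd4-bearing gated cells it was −0.19, with 7 higher and 11 lower.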

How the data were processed

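Spleen CD3 cells were profiled by droplet 3′ sequencing in 1 Prmt5 CKO and 1 control library. The deposited matrices hold whole-number UMI counts per gene and barcode, made by the authors with Cell Ranger 3.1.0, per the file headers. CASAVA 1.8, Seurat 2.3.4 and mm10 are named, without a role, per the submitters' processing notes. All further steps are a re-analysis of these counts (python 3.11.15, numpy 2.4.6, scipy 1.17.1, pandas 2.3.3, scanpy 1.11.5). The members and gene lists were chosen with earlier results of these data known.

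Kept barcodes had 500 or more genes with a UMI and less than 10% of their UMIs from mitochondrial genes. UMIs were summed over the cells of a set and divided by the set's total (CPM). Intervals at 95% are exact: Poisson for levels, Clopper-Pearson for shares, conditional binomial for ratios. They take UMIs as independent and leave out variation between mice. Where a sum was 0, a floor of 3 counts was used. Cells were also thinned to 2000 or 4000 UMIs with a fixed seed. The computation was tested on simulated data. Scrublet called 0 doublets in both libraries (thresholds 0.6434 in Prmt5 CKO and 0.6289 in control), so it did not work here and no cell was removed as a doublet. Instead, results were repeated without the highest 6% of doublet scores, which held 3 Prmt5 CKO and 2 control gated cells.

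Ratios over other T cells were taken for genes with at least 20 CPM in one set in each library, with list counts over those at 20 CPM or more in other T cells, and ratios between libraries for genes with at least 50 UMIs over both. Named were the 24 highest and 10 lowest genes in the first comparison (at least 50 CPM and 10% of cells in the higher set). In the second they were the 12 highest and 12 lowest (at least 10 gated cells, under 20% of UMIs from 1 cell, interval off 0). Between the routes they were the 8 highest and 8 lowest. Left out were genes of the gate, antigen receptor segments, pseudogenes, predicted, ribosomal and mitochondrial genes, Y-linked genes, Xist and Tsix. Other X-linked genes stayed in, among them P2ry10 and Cd40lg. Of the 12 highest genes between libraries, 11 are given and the other is not reported here. Other genes are members of 27 lists or were chosen after their values were seen. Positions are from GENCODE, mm10, which placed 30843 of 30905 genes.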

Additional observations from a re-analysis of the deposited data

Results flagged for a closer look

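Of the 114 tested genes picked by size of this ratio overall or within a list, 11 had one sign of the log2 ratio of Prmt5 CKO over control in gated cells and the other in the other T cells, with both intervals off 0. Over all 3876 genes tested this held for 119 (3.07%). With 1 library per group this difference was not tested. Cxcr6 had −1.34 in gated cells and 0.22 in other T cells. Klrk1, which encodes the activating receptor NKG2D, had −1.46 and 1.03, with 55.4% of the control UMIs in gated cells from 1 cell. Ccl5 had −0.40 and 0.73, with 46.4% of the control UMIs from 1 cell. Bcl2l11, which encodes the pro-apoptotic BIM, had −0.69 and 0.15. Among genes of biosynthesis and methylation, Pgam1 had −0.33 and 0.09, Prmt1 had −0.37 and 0.15, Snrpd3 had −0.28 and 0.13, and Snrpf had −0.18 and 0.08. In the other direction, Klf2 had 0.50 and −0.26, Grap2, an adaptor of the antigen receptor, had 0.64 and −0.05, and Ier5, an immediate early gene, had 0.51 and −0.07.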

How the results depend on the processing

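No paired analysis was possible because each group is 1 library and no result comes from a test. The ratio of gated shares stayed inside its interval under all 9 alternatives, but turned to 0.958 (1.18% in Prmt5 CKO, 1.23% in control) under a cell filter of 1000 or more genes and a mitochondrial share below 5%. Thinning each gated cell to 2000 UMIs moved the lineage shares in the Prmt5 CKO library to 22.7% (Cd8 without Cd4), 2.67% (Cd4 without Cd8), 1.33% (both) and 73.3% (neither), and in the control library to 1.89% (Cd4 without Cd8), 0% (both) and 60.4% (neither), since thinning removes transcripts. Genes at least 2-fold higher and lower in gated than in other T cells numbered 413 and 123, against 249 and 59 among cells with 5000 to 15000 UMIs, 241 and 78 with at least 50 CPM, 1037 and 266 without a filter on low genes, and 207 and 123 with at least 20 CPM in other T cells, which was added after seeing the data. Scaling without ribosomal, mitochondrial and receptor genes gave 228 lower. Over genes with 20 CPM in either set, the list medians turned within 5000 to 15000 UMIs to 0.017 (Prmt5 CKO) and 0.0055 (control) for interferon response and to 0.26 and 0.29 for helper subsets, and in the control library to 0.15 for cytokine receptors, 0.031 for dissociation stress, 0.0049 for p53 targets and 0.015 for AP-1 and IRF. Thinning to 2000 UMIs turned cytokine receptors to 0.010 and 0.12 and, in the Prmt5 CKO library, dissociation stress to 0.17. The scaling without ribosomal, mitochondrial and receptor genes turned NF-kB to −0.0041 and −0.091, AP-1 and IRF in the Prmt5 CKO library to −0.011 and the TNF family in the control library to −0.0044. The mean of per-cell CPM turned 3 medians.

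Genes at least 2-fold higher and lower in Prmt5 CKO than in control gated cells numbered 29 and 29. They numbered 118 and 113 with at least 25 UMIs, 10 and 3 with at least 100 UMIs, 183 and 217 at 1.5-fold, 68 and 72 in cells with Y-linked transcripts and no Xist, and 67 and 13 in cells with Cd4 and without Cd8. The mean of per-cell CPM gave 49 higher, and cells with Cd8 and without Cd4 gave 15 higher. Alternatives chosen after seeing the data gave 13 lower in gated cells with 5000 to 15000 UMIs and 19 higher in cells with Xist and no Y-linked transcript. In the 16 Prmt5 CKO and 6 control cells with Cd4, the log2 ratio turned for Serpina3g (−1.54), Ccm2 (−0.081), P2ry10, Slain2 and Carnmt1 (0.045 each), Trmt61a (0.63) and Lrrc59 (1.37), and so did 14 of 21 list medians: the TNF family (−0.50), MYC and biosynthesis (0.91), methyltransferases (0.24), glycolysis (0.49), naive genes (−0.19), S phase (0.63), Sm core (0.33), Treg identity (−0.87), AP-1 and IRF (−0.41), receptor signalling (−0.24), memory (−0.73), p53 targets (−0.54), NF-kB (−0.11) and helper subsets (−0.37). No minimum of UMIs was set within these Cd4-bearing cells, and a sum of 0 was set to 3 counts. Equal counts, or 0 UMIs in both libraries, give 0.045, which is also the median over all tested genes there. Low counts can thus place genes and list medians on the other side of 0. Without Trdc-bearing cells 9 of the 21 list medians turned, in cells with Xist and no Y-linked transcript 8, and in the band 5. In cells with Cd8 and without Cd4 the G2 and M phase median turned to −0.013. Between the routes, the mean of per-cell CPM gave 126 genes higher. Cells with Cd8 and without Cd4, 3 of which entered by Egr2 in each library, gave 825 lower and turned Spry2 to −0.56 and Hibadh to −0.72. A gene with no UMI in those 3 cells was set to 3 counts there, and can thus count as lower in the Xcl1 route without having been seen in the Egr2 route. The part of this floor in the 825 and in Spry2 and Hibadh was not counted. The cause of the other changes was not tested. Counts between libraries rest on 891831 UMIs in Prmt5 CKO and 725728 UMIs in control gated cells, and low genes pass 2-fold more easily.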
